A study of Mus musculus with 6 samples.

Results

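A set of 2098 long noncoding RNA (lncRNA) loci was taken from a table of 32357 loci that compared cultured mouse cortical neurons with and without knockdown of Neurod2, a basic helix-loop-helix transcription factor of excitatory cortical neurons. A locus was included when its mm10 position shared at least 0.5 of the combined span with a GENCODE gene of the type lincRNA, antisense, processed transcript, bidirectional promoter lncRNA or lncRNA, when coding genes took up less than 0.5 of its length, and when no small RNA gene lay inside it. No measured value entered these criteria, though the set was chosen with earlier results of these data known. The 2098 loci held 1508 of the lincRNA type, 294 antisense, 241 processed transcripts and 55 bidirectional promoter lncRNAs, and they stood at 1602 distinct positions.

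The neurons came from the cortex of Balb/c mouse embryos at E14.5 and were nucleofected with pSuperneoGFP plasmids that express a short hairpin RNA and GFP. Of the 6 libraries, 2 came from neurons given a non-silencing hairpin, 2 from neurons given the hairpin shNeurod2-1 and 2 from neurons given shNeurod2-2, all in a medium with N-2, B-27 and serum. The labels give 4 days in vitro for these cultures, while the study's methods give a later day for the RNA. Total RNA was sequenced as single-end reads of 50 bp. The table gives 1 pooled value for the non-silencing group and 1 for both hairpins together, as FPKM (fragments scaled by transcript length and by the mapped fragments of the library). The replicate spread behind a value and its depth are therefore unknown, the hairpins cannot be compared, and no test was made here. The p-values that the authors deposited for the loci they tested were not used. In such bulk RNA fewer cells of a type and less RNA per cell cannot be told apart.

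lncRNAs are transcripts over the length of small RNAs that are not translated into a long protein. Many are transcribed away from the promoter of a coding gene or on its opposite strand, and most are present at lower levels than mRNAs. Some act at the chromatin of their own locus, as in X inactivation and at imprinted clusters, some hold proteins in the nucleus or cytoplasm, and for most no function is known.

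The promoters of 7 of these loci are shown first because Neurod2 binds E-boxes. They are a selection from the loci named below. Med9os and 1110019D14Rik were among the loci with the highest ratios of knockdown to non-silencing, 1110015O18Rik was also higher, and 2310010J17Rik and Etaa1os were lower. Pantr2 and Jpx are lncRNAs of neural development and of X inactivation. Each window runs from 250 bases before to 50 bases after the annotated start, 5′ to 3′ on the strand of the gene, from RefSeq (GRCm38.p6). Capitals mark the letters CAGATG or CAGCTG on either strand, so that CATCTG is CAGATG read on the other strand. Other E-box sequences were not searched or marked.
Pantr2, chr1:42713405-42713704, minus strand: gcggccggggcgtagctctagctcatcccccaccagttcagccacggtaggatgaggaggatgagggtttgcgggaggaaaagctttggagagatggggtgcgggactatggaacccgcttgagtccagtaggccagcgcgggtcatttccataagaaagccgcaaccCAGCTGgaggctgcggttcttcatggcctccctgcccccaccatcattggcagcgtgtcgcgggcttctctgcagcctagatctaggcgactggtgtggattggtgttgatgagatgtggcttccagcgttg
Jpx, chrX:103493308-103493607, plus strand: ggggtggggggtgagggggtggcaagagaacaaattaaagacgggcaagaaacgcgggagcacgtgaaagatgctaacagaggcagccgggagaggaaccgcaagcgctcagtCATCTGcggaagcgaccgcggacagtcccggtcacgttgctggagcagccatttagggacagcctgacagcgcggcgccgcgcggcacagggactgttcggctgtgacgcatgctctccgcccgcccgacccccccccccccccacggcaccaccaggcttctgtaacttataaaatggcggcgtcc
Med9os, chr11:59948098-59948397, minus strand: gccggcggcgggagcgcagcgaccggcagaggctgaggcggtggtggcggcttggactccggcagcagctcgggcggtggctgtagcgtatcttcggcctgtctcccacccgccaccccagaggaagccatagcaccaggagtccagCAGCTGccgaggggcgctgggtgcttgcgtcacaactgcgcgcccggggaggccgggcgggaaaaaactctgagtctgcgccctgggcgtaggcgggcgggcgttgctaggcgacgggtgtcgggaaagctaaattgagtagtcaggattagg
Etaa1os, chr11:17953720-17954019, plus strand: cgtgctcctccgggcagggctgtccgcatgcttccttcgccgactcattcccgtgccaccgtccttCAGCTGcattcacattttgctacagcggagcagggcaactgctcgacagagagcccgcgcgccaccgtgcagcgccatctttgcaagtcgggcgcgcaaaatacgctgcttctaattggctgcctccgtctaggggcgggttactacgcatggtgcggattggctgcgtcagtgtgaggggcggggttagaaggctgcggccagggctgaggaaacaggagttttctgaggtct
1110019D14Rik, chr6:13871319-13871618, plus strand: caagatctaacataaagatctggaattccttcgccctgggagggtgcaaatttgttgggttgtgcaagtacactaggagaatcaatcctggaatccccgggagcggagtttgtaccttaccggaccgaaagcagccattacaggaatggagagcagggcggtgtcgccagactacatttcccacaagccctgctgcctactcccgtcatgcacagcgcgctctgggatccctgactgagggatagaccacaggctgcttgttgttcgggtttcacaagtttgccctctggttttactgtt
1110015O18Rik, chr3:4798458-4798757, plus strand: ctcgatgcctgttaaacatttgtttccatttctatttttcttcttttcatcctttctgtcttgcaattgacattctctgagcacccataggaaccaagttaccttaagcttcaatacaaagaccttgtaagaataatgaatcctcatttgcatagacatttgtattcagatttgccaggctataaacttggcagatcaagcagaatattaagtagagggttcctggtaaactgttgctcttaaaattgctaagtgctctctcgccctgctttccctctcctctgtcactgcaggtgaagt
2310010J17Rik, chr7:90129887-90130186, minus strand: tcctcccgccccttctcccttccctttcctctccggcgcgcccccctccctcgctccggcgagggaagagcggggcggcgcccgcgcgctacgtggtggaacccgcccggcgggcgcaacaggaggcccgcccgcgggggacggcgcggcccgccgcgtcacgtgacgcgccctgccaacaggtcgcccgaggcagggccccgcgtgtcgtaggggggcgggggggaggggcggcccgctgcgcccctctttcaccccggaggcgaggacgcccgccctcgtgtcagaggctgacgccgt
The letters stood at -82 in the Pantr2 window, -137 in Jpx, -103 in Med9os and -184 in Etaa1os, counted to the first base of the match from the start at 1. The windows of 1110019D14Rik, 1110015O18Rik and 2310010J17Rik held no match to CAGATG or CAGCTG, which does not mean that they lack other E-boxes. Dmrta2os, higher in knockdown neurons, and A230006K03Rik and 5330416C01Rik, both lower, also had windows. These are not shown and held no match, so the share of shown windows with a match is not a result. Among the lncRNA genes with a mean level of at least 1 FPKM, RefSeq windows were found for 161 of 231 genes. Of these 192 windows 62 held either motif (32.3%), beside 10043 of 32851 windows in the whole promoter table (30.6%). CAGATG alone was in 35 of the 192 windows (18.2%) and in 17.2% of all windows. Stand-alone loci, as set out below, overlap no coding gene and no small RNA gene. Those among these genes held either motif in 30 of 103 windows (29.1%) and CAGATG in 15 (14.6%). The sign of the small difference from all windows therefore depended on the set.

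Most of the loci were at or near 0 in these neurons. Both values were known for 2097 of them, and 806 (38.4%) were listed at 0 in both groups, 716 had a mean of the groups over 0 and under 0.1 FPKM, 317 lay from 0.1 to under 1, 205 from 1 to under 10, and 53 (2.53%) at 10 or more. Of the 17471 protein-coding loci without small RNA genes, 12.8% were at 0 in both groups and 31.0% were at 10 FPKM or more. The status column of the table, in which OK marks loci with enough alignments to be tested, said OK for 319 of the 2098 lncRNA loci (15.2%), beside 41.7% of all loci. More lncRNA loci were above 0 in the knockdown value only (401) than in the non-silencing value only (58). Over all loci these counts were 2724 and 432, and the knockdown value pools 4 libraries beside 2. The part of this difference in pooling was not tested.

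**Figure D1:**
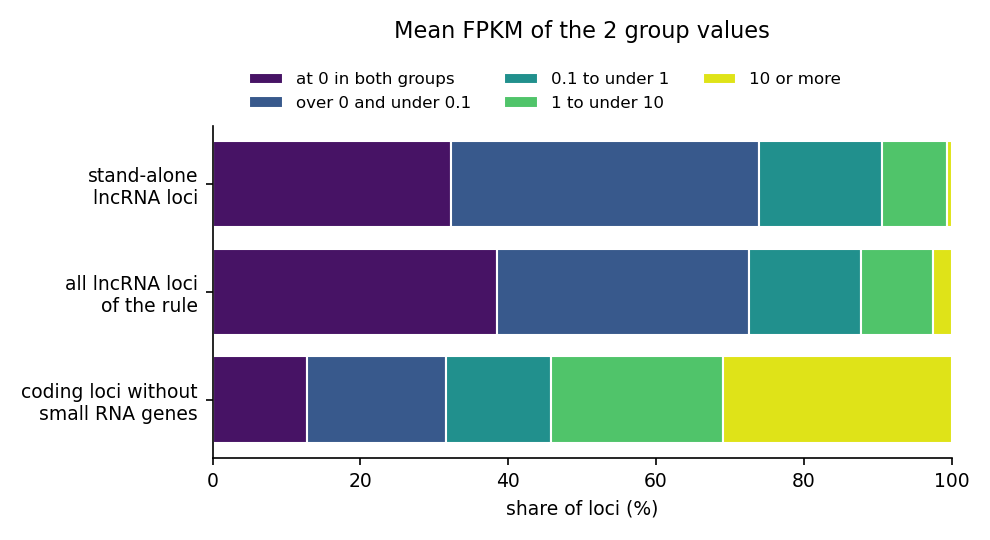
Share of loci (%) in each class of mean FPKM for the 1341 stand-alone lncRNA loci, the 2097 lncRNA loci with both values known and the 17471 coding loci without small RNA genes. The class at 10 FPKM or more takes up 31.0% of the coding loci, 2.53% of the lncRNA loci and 0.597% of the stand-alone lncRNA loci.

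The loci with the highest values were mostly not the transcript of an lncRNA alone. At 10 FPKM or more, 35 of the 53 loci overlapped a coding gene (66.0%) and 37 shared their position with other entries (69.8%). Among the loci over 0 and under 0.1 FPKM 13.7% overlapped a coding gene and 19.4% shared their position. Of the 806 loci at 0 in both groups 7.44% overlapped a coding gene, but 44.3% shared their position. Sharing a position therefore did not rise evenly with the level. Entries that share a position each carry their own transcript identifiers, but the table gives only the span of the whole cluster. The locus of Uchl1os (chr5:66626494-66687234), which lies across Uchl1, a ubiquitin hydrolase abundant in neurons, had 675 FPKM in non-silencing and 668 in knockdown neurons. BC065397 on chromosome X, with coding genes on 47.2% of its length, had 151 and 143 FPKM, and R74862 near Cd81 had 148 and 135. The locus of 4930558J22Rik (chr13:23755821-23757620) lies in a histone gene cluster beside Hist1h4b and had 338 and 316 FPKM. Gm28872 (chr4:132270078-132270186), a short locus on the opposite strand from the U11 small nuclear RNA gene, had 970 FPKM in non-silencing and 1093 in knockdown neurons. The small RNA gene runs past the end of the locus and was therefore not counted as inside it. For these 5 loci the level of the lncRNA and that of the gene beside or across it cannot be told apart.

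A narrower set was therefore described beside the whole. It held the 1341 loci (63.9%) that shared their position with no other entry, overlapped no coding gene and no small RNA gene of GENCODE or RefSeq, and were not protein-coding in RefSeq. Overlap was judged on the span given for the locus, which can be shorter than the annotated gene. Overlap with other lncRNA genes was not checked. These stand-alone loci had a median of 0 FPKM in the non-silencing and 0.0215 FPKM in the knockdown group, and 433 of them (32.3%) were at 0 in both. At 1 FPKM or more were 127 loci, with a median of 2.53 FPKM in non-silencing and 2.57 FPKM in knockdown neurons, and only 8 reached 10 FPKM. The coding loci without small RNA genes that passed the same limit had medians of 12.6 and 12.3 FPKM.

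The stand-alone lncRNA with the highest level was 2900097C17Rik (chr2:156388062-156392979), a transcript of a single exon of 4915 bases known as Norad, a cytoplasmic RNA that binds Pumilio proteins. It had 25.5 FPKM in non-silencing and 26.7 FPKM in knockdown neurons. 5031425E22Rik, which starts 172 bases from the chromatin regulator gene Kmt2e and runs the other way, had 20.9 and 18.7 FPKM. 1700048O20Rik had 15.1 and 12.7 FPKM. The values of the groups lay close together in these 3 loci, each within 1.2-fold. 2010320M18Rik, head to head with Pik3r2, a regulatory subunit of phosphoinositide 3-kinase, had 13.7 and 12.8 FPKM. 4632415L05Rik had 11.6 FPKM in both groups, and 4632427E13Rik, head to head with Rab30, had 11.0 and 11.2. RefSeq lists 4632415L05Rik as a transcribed pseudogene, a type that the stand-alone choice did not remove. Lockd, which lies downstream of the cell cycle inhibitor gene Cdkn1b, had 12.8 FPKM in non-silencing and 9.98 in knockdown neurons (log2 ratio -0.36), and Gm20300 had 9.65 and 11.6 FPKM. None of these 8 loci was past 1.5-fold.

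The level of a stand-alone lncRNA went with its place in the genome. Of the 127 genes at 1 FPKM or more, 71 (55.9%) had their annotated start within 5 kb of the start of a coding gene. The count was 110 of 223 genes (49.3%) from 0.1 to under 1 FPKM, 66 of 558 (11.8%) over 0 and under 0.1 FPKM, and 24 of 433 (5.54%) among those at 0 in both groups. In each of these classes most of the close pairs ran head to head, away from each other. The counts were 59 of the 71 in the highest class and 22 of the 24 in the lowest. Stand-alone loci overlap no coding gene by definition, which removes many other close arrangements. This majority is therefore set in part by the choice of loci. By type, 15 of 42 bidirectional promoter lncRNAs reached 1 FPKM (35.7%), as did 31 of 143 processed transcripts (21.7%), 16 of 81 antisense loci (19.8%) and 65 of 1075 lincRNAs (6.05%). The annotated exons had a median of 2040 bases in the highest class and 843 bases in the class at 0, and 18 of the 127 genes had a single exon beside 3 of the 433.

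**Figure D2:**
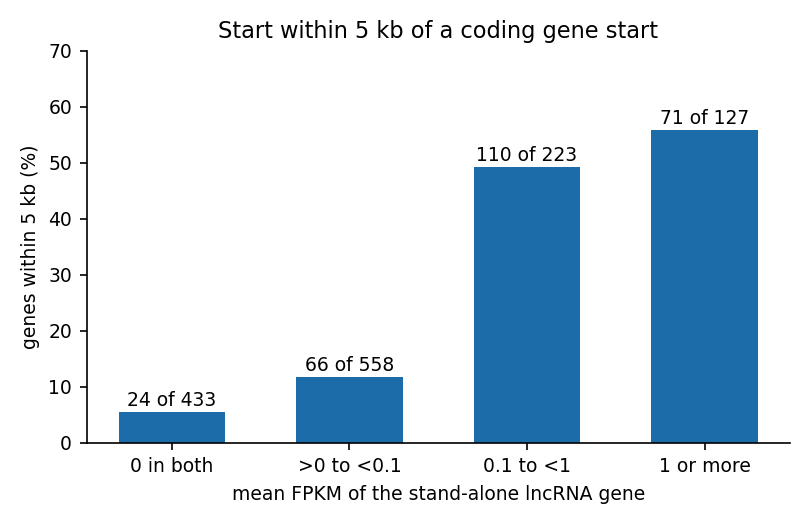
Share (%) of stand-alone lncRNA genes whose annotated start lies within 5 kb of a coding gene start, by class of mean FPKM, with the counts above the bars. The share was 5.54% in the class at 0 in both groups and 55.9% at 1 FPKM or more.

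Neurod2 itself, the target of the hairpins, had 105 FPKM in non-silencing and 60.3 FPKM in knockdown neurons, 0.575 of the non-silencing value. Marker genes of excitatory cortical neurons summed to 1256 and 1309 FPKM (5 of 6 listed genes had a single locus). Those of Cajal-Retzius cells, the Reln-expressing neurons of the marginal zone, summed to 20.8 and 40.4 FPKM (6 of 6) and those of interneurons to 4.96 and 8.22 FPKM (3 of 8). Most of the latter was Sst, with 3.29 and 6.55 FPKM, while Dlx5 of the same list had 1.00 and 0.622 FPKM and Lhx6 0.666 and 1.05. Progenitor markers gave 246 and 235 FPKM (4 of 6), astrocyte markers 215 and 202 (4 of 6), oligodendrocyte lineage markers 110 and 104 (6 of 6), and mesenchymal markers 4.08 and 6.80 FPKM (6 of 6). Astrocyte markers did not move together. Gfap had 57.4 and 35.1 FPKM and S100b 0.404 and 0.323, while Slc1a3 had 87.5 and 90.4 and Aldoc 69.9 and 76.5. Of the mesenchymal markers Col1a1, Col3a1, Acta2 and Postn were higher in the knockdown value, Dcn was nearly equal and Pdgfrb was lower. Microglial (3 of 6) and endothelial (4 of 5) markers summed to under 1 FPKM in both groups, with C1qa and Cldn5 listed at 0 in a group. The part of these shifts in any lncRNA value was not tested.

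The middle of the lncRNA ratios lay close to that of all loci, and loci past the limit were split between both directions. Ratios were taken as log2 of the knockdown over the non-silencing value after adding 0.1 FPKM to each, for loci with a mean of at least 1 FPKM, and a locus was counted when it was past 1.5-fold. The 258 lncRNA loci had a median log2 ratio of -0.01, beside -0.03 over all 12822 loci, and 21 of them (8.14%) were past 1.5-fold, 11 higher and 10 lower. Over all loci 4.80% were past 1.5-fold, 2.36% higher and 2.44% lower. The 127 stand-alone loci had a median of 0.01, with 5 higher and 6 lower (8.66%). With a pseudocount of 1 FPKM 14 of the 21 loci and 6 of the 11 stand-alone loci were still past 1.5-fold. Among 9471 coding loci without small RNA genes 1.67% were past 1.5-fold, and among 113 lncRNA loci with a small RNA gene inside 29.2%.

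The share past 1.5-fold has to be read against the level. From 1 to under 2 FPKM 9 of 84 lncRNA loci were past it (10.7%), beside 7.78% of all loci at that level. From 2 to under 5 FPKM the counts were 6 of 75, beside 4.59% of all loci, and from 5 to under 10 FPKM 0 of 46, beside 1.48%. At 10 FPKM or more 6 of 53 lncRNA loci were past 1.5-fold, beside 5.44% of all loci, and none of the 6 was among the 8 stand-alone loci of that class. Of the 127 stand-alone loci, 84 (66.1%) were within 1.2-fold, beside 85.5% of all loci, which had higher levels. Across the 127 loci log2 FPKM correlated between the groups with a Pearson r of 0.936, given as a description since both values share the alignment and the gene models.

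**Figure D3:**
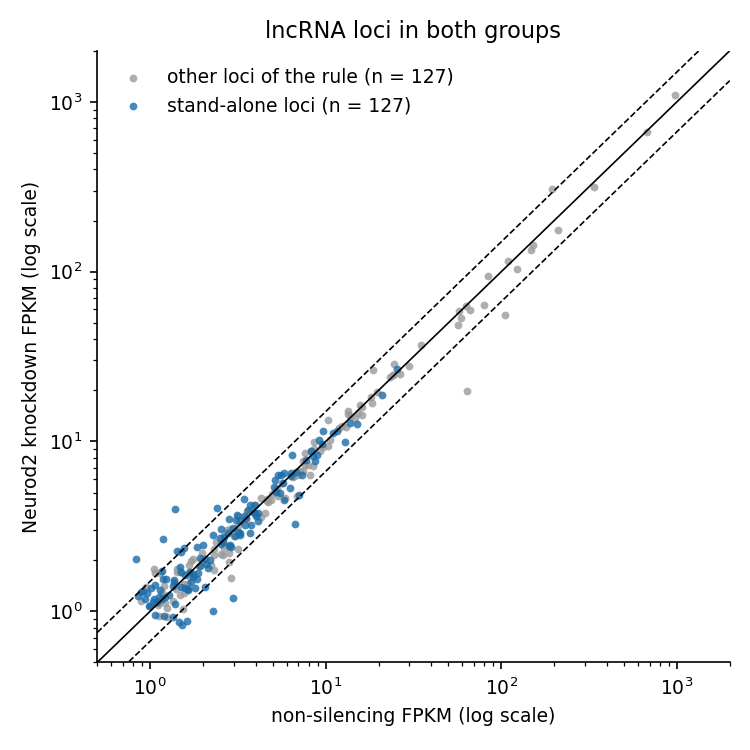
FPKM in Neurod2 knockdown against non-silencing neurons (log scales) for the 254 lncRNA loci with a mean of at least 1 FPKM and both values above 0, 127 stand-alone and 127 other. The solid line marks equal values and the dashed lines 1.5-fold, and most points lie between the dashed lines.

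Of the 5 stand-alone loci that were higher in knockdown neurons, N4bp2os had the largest ratio. N4bp2os (chr5:65761444-65763352), on the opposite strand beside N4bp2, had 1.39 FPKM in non-silencing and 4.00 in knockdown neurons (log2 ratio 1.46). The annotated N4bp2os gene runs past this locus and across the start of N4bp2. 1110019D14Rik (chr6:13871568-14044385) had 0.828 and 2.04 FPKM, 2.46 times the non-silencing value. Med9os, head to head with Med9, a subunit of the Mediator complex, had 1.18 and 2.65 FPKM (log2 ratio 1.10). These 3 were the stand-alone loci over 2-fold higher, and each was under 1.5 FPKM in the non-silencing group. 1110015O18Rik (chr3:4798707-4814911), far from any coding start, had 2.42 and 4.05 FPKM (log2 ratio 0.72). Dmrta2os, head to head with Dmrta2, a transcription factor gene of cortical progenitors, had 1.43 and 2.26 FPKM (log2 ratio 0.62).

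The 6 stand-alone loci that were lower in knockdown neurons ranged from log2 ratios of -1.25 to -0.69. 1700124L16Rik, antisense to Ankrd53, had 2.98 FPKM in non-silencing and 1.19 in knockdown neurons (log2 ratio -1.25). Its annotated gene runs past the locus and across the start of Ankrd53. A230006K03Rik (chr7:61089567-61311721), which lies between the imprinted genes Ube3a and Ndn, had 2.28 and 1.01 FPKM (log2 ratio -1.11). 2310010J17Rik, head to head with Picalm, a clathrin assembly gene, had 6.65 and 3.25 FPKM (log2 ratio -1.01) and the highest level of the 6. AC138790.1, which starts 297 bases from the mitochondrial carrier gene Slc25a28, had 1.61 and 0.871 FPKM (log2 ratio -0.82). 5330416C01Rik had 1.52 and 0.834 FPKM (log2 ratio -0.79). Etaa1os, head to head with Etaa1, a gene of the replication stress response, had 1.46 and 0.871 FPKM (log2 ratio -0.69). With a pseudocount of 1 FPKM 1110015O18Rik, Dmrta2os, AC138790.1, 5330416C01Rik and Etaa1os were inside 1.5-fold. Of the 11 stand-alone loci past 1.5-fold, 8 had at least 1 RefSeq promoter window, and some had more. Only Med9os and Etaa1os, 1 higher and 1 lower locus, had a window with a match, CAGCTG. These 2 of 8 genes stand beside 30.6% of all promoter windows with either motif, a share counted by window.

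**Figure D4:**
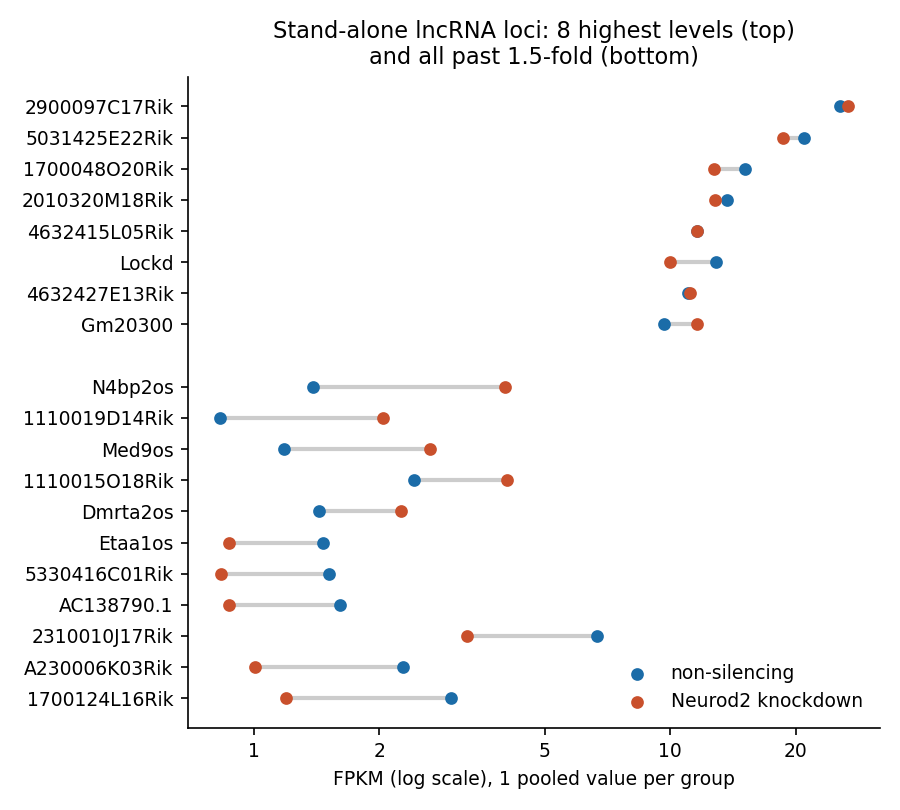
FPKM (log scale) of stand-alone lncRNA loci in non-silencing and Neurod2 knockdown neurons, 1 pooled value per group and no error. The 8 loci with the highest levels have points close together, while the 11 loci past 1.5-fold lie between 0.828 and 6.65 FPKM.

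The other 10 entries past 1.5-fold were not stand-alone, and 9 of them shared 7 positions with further entries. Gm2762 (chr13:53393688-53455630) had 2479 FPKM in non-silencing neurons in 1 of its 11 entries and was listed at 0 in knockdown neurons. The 11 entries summed to 2480 and 0.358 FPKM. At 4930557F10Rik (chr13:23276203-23313407), where RefSeq places 7 tRNA genes, 1 of 9 entries had 0 and 54.8 FPKM, another 105 and 55.6, and a further one 210 and 175. The 9 entries summed to 315 and 285 FPKM. At 4930555B11Rik, with 2 tRNA genes of RefSeq, 1 of 3 entries had 193 and 307 FPKM and the others 0. At Gm10069, which starts beside Fkbp4, 2 of 17 entries were listed at 0 in non-silencing neurons and had 50.2 and 9.84 FPKM in knockdown neurons. The status of both was NOTEST and not OK, as was that of the 4930557F10Rik entry with 0 and 54.8 FPKM. 2310002F09Rik, in the kallikrein gene cluster, had 1.05 and 1.78 FPKM in 1 of 8 entries, which summed to 2.35 and 3.04 FPKM, inside 1.5-fold. C230088H06Rik had 1.06 and 1.67 FPKM in 1 of 10 entries, which summed to 1.06 and 1.68 FPKM. Tmem134 shared its position with no other entry and went from 63.5 to 19.8 FPKM (log2 ratio -1.68), and it is a protein-coding gene in RefSeq although GENCODE calls it a processed transcript. RefSeq gives the type protein-coding to 34 of the 2098 loci and places tRNA genes in 27.

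Of 55 lncRNAs on the lists for known functions, 8 were among the loci, 18 had a miRNA, snoRNA, scaRNA or snRNA gene inside and 11 a gene of another short class. The last group, with Malat1, Tug1, Miat and Neat1, holds short entries that mark conserved pieces of the lncRNA itself. On the list for nuclear organisation and X inactivation, Jpx, an activator of Xist, had 4.63 FPKM in non-silencing and 4.48 FPKM in knockdown neurons. Its locus overlaps a small RNA gene, so it is not stand-alone, and it ends before the annotated gene does. Firre, an X-linked RNA that holds chromosome regions together in the nucleus, had an entry of 5.35 and 4.79 FPKM and another of 2.89 and 1.56 FPKM (log2 ratio -0.85), and its entries summed to 8.24 and 6.35 FPKM, inside 1.5-fold. Of the 3 genes of this list, which include 2900097C17Rik, only Firre had an entry past 1.5-fold, in 1 of its 2 entries, beside 4.80% of all loci.

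On the neural development list, Pantr2, a neighbour of the cortical transcription factor gene Pou3f3, had 9.22 FPKM in non-silencing and 10.2 in knockdown neurons. Emx2os, antisense to the cortical patterning gene Emx2, had 0.211 and 0.271 FPKM, and Lhx1os was listed at 0 in non-silencing neurons and had 0.269 FPKM in knockdown neurons. None of these 3 was counted, the last 2 because their means were under 1 FPKM. Lncpint, a p53-induced RNA, had 0.364 and 0.385 FPKM. A230006K03Rik was the member on the imprinted cluster list and the lowest in ratio of the stand-alone loci around it. Gm44644 on its one side had 2.05 and 1.39 FPKM (log2 ratio -0.53), and B230209E15Rik on the other had 8.69 and 7.71 FPKM (log2 ratio -0.17). Gm9801, nearer to Ndn, had 6.34 and 6.27 FPKM (log2 ratio -0.02). Those 3 neighbours, chosen after their values were seen, were not past 1.5-fold.

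Ratios of lncRNA loci and of the coding genes beside them were nearly uncorrelated. A coding gene with a single locus of at least 1 FPKM started within 5 kb in 83 cases, 59 of them head to head, and its level was above that of the lncRNA in 81. The coding gene had 5.90 times the level of the lncRNA in the median, with quartiles of 2.54 and 15.6. The log2 ratios of lncRNA and coding gene correlated with a Pearson r of 0.10 and a Spearman rho of 0.03 over the 83 pairs. Without the 2 Gm10069 entries at 0, r was -0.01 over 81 pairs. All values come from the same pooled libraries, and the 83 pairs hold 79 distinct lncRNA genes.

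None of the 9 paired entries past 1.5-fold had a coding neighbour past it, and these neighbours ranged from -0.22 to 0.18 on the log2 scale. Over all 83 pairs only 1 coding neighbour was past 1.5-fold, and 1.67% of all coding loci without small RNA genes were. With so few past it, the 9 pairs do not show whether lncRNA and neighbour change together. In 5 of the 9 the neighbour had the same sign as the lncRNA, and both Gm10069 entries, each paired with Fkbp4, were among these. In the 7 stand-alone pairs the count was 3. N4bp2 had 8.36 and 8.38 FPKM while N4bp2os was higher in knockdown neurons. Med9 had 7.00 and 6.80 FPKM beside Med9os. 2610001J05Rik, which starts 8 bases from 1110019D14Rik, had 12.9 and 13.8 FPKM. The coding values of these pairs differed little while the lncRNA values differed over 2-fold. Dmrta2 had 12.3 and 10.5 FPKM, opposite in sign to Dmrta2os. Picalm had 79.7 and 84.4 FPKM beside the lower 2310010J17Rik, Slc25a28 had 13.2 and 12.4 FPKM, and Etaa1 had 6.45 and 7.34 FPKM beside the lower Etaa1os. Fkbp4, a co-chaperone gene, had 872 and 954 FPKM. The coding gene of another pair was past 1.5-fold, Zdhhc4 with 13.6 and 32.6 FPKM, while 0610040B10Rik on the opposite strand had 3.25 and 3.42 FPKM. This pair was picked after its values were seen.

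**Figure D5:**
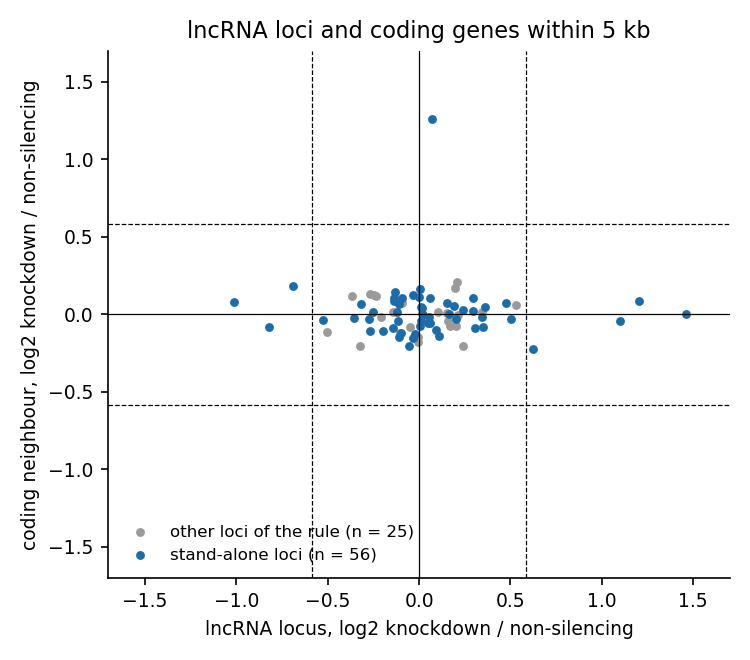
log2 ratio of knockdown over non-silencing for the coding gene (vertical) against that of the lncRNA locus (horizontal) in 81 pairs with starts within 5 kb, 56 of them stand-alone loci. Dashed lines mark 1.5-fold. The 7 lncRNA loci past it have coding neighbours near 0, and only 1 coding gene of all the pairs is past it.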

How the data were processed

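The authors aligned the reads to mm10 with TopHat and made FPKM per locus with Cufflinks and Cuffdiff, per the labels. The sources used here name no tool versions. The deposited table holds 1 FPKM column per condition, pooled by the authors, and their log2 fold changes and p-values, which were not used as results. A spreadsheet had turned many FPKM cells into times. Each was turned back by testing every number that gives the shown time, and the pair whose log2 ratio met the deposited log2 fold change within 2e-05 was kept. For loci with 1 group at 0 the deposited ratio gives no such check, and a value was kept where only 1 reading was possible. Gm2762 was restored in this way. Both steps together restored 4950 of 32357 loci, 80 of them lncRNA loci, and left 83 open, 1 of them an lncRNA locus.

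Positions were matched to GENCODE release 21 for mouse, and biotypes and promoters to RefSeq (GRCm38.p6), promoters by Ensembl identifier or symbol. Small RNA genes included all short classes of GENCODE. Ratios used a pseudocount of 0.1 FPKM and a mean of at least 1 FPKM. With 1 pooled value per group no test was made here and no error is given. Named loci were Neurod2, the 8 with the highest mean FPKM, the 8 highest and 8 lowest ratios at a mean of at least 1 FPKM, list members at a mean of at least 0.1 FPKM, and coding neighbours within 5 kb. The stand-alone set and its loci were added after the values were seen. The loci and lists were chosen with earlier results of these data known. Scripts ran in Python 3.11.15 with pandas 2.3.3, numpy 2.4.6 and scipy 1.17.1, and were tested on simulated data. The simulated data did not include loci restored without the ratio check.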

Additional observations from a re-analysis of the deposited data

How the results depend on the processing

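No paired analysis was possible because the deposited table holds 1 pooled value per group, and for the same reason no replicate could be left out and depth sets no interval. Requiring stand-alone loci, a choice made after seeing the data, left 1341 loci, of which 11 were past 1.5-fold. The 21 of 258 loci past 1.5-fold (8.14%) became 12 of 160 at unshared positions (7.50%, beside 3.20% of all loci), 6 of 99 at a mean of at least 5 FPKM (6.06%, beside 4.50%), and 236 of 1291 with no filter on low values (18.3%, beside 9.65%), 150 higher and 86 lower, where the median log2 ratio was 0.13, beside 0.0039 over all loci. In the first of these settings and at a mean of at least 5 FPKM fewer loci enter by construction. The other counts of loci past 1.5-fold ranged from 14 (pseudocount 1, 5.43%, beside 4.03% of all loci) to 22 of 270 (8.15%, only miRNA, snoRNA, scaRNA and snRNA genes as small RNA). These settings hold different numbers of loci. The highest share among them was 17 of 156 (10.9%), with no overlap with a coding gene. No share over all loci was taken for the last 2 settings. The other medians ranged from -0.02 to 0.02. The correlation of lncRNA and coding ratios was -0.029 over the 56 stand-alone pairs, opposite in sign to that over all pairs. CAGATG alone was in 18.2% of the promoter windows. With pseudocount 1, 7 of the 21 entries moved inside 1.5-fold, 5 of them stand-alone. Centring on the median of all loci moved none of the 30 entries named by the rule.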
